A study of Drosophila melanogaster with 6 samples.

Results

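Transcript levels were compared between heads of female Drosophila melanogaster labelled Tim-Fbl in the RNAi field and heads of control females. The comparison took all 6 of the 6 arrays of the series by their labels, with no measured value used in the choice. Tim-Fbl had 1 array at ZT3 and 1 at ZT15, and the control had 2 arrays at each of these times. ZT3 and ZT15 are zeitgeber times of 3 and 15 hours after lights-on. All flies were kept at 25 °C. Affymetrix oligonucleotide arrays were hybridised with biotinylated cRNA, for which 3 µg of total RNA was the input. The labels give no more of the Tim-Fbl genotype than its name and the RNAi field, and no age, driver line or construct. No Tim-Fbl array has a replicate at its own time, so the test assumes that Tim-Fbl arrays vary like control arrays. The labels do not say that control replicates came from separate flies, so the p-values rest on a spread between arrays that may be technical.

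The gene fbl (fumble) encodes pantothenate kinase, which starts the synthesis of coenzyme A from vitamin B5. Coenzyme A carries acyl groups in the citric acid cycle, in fatty acid breakdown and in lipid synthesis, and loss of the human enzyme PANK2 causes a neurodegeneration with brain iron accumulation. The gene tim (timeless) encodes a core protein of the circadian clock, and its promoter is widely used in flies to express transgenes in clock cells, which include photoreceptors and glia.

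Values below are log2 levels. A difference is Tim-Fbl minus control, averaged over the 2 times with time as a covariate, and it is given beside the difference at each time. A gene passed where the limma p adjusted over all 18769 probe sets was under 0.05, and "rose" and "fell" are used only of genes that passed. Array values are listed as ZT3 then ZT15, with replicate 1 before replicate 2 at each time in controls. The lower quartile of an array was 3.99 to 4.16, and levels under 5 lie near this floor, where differences are compressed and a fold is a lower bound.

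Array medians were 5.46 on both Tim-Fbl arrays and 5.47 to 5.51 on the control arrays. Across probe sets, the control pairs correlated at r = 0.996 at each time and the Tim-Fbl arrays, which differ in time, at 0.996. The median of 12 poly-A spike-in probe sets was 5.17 and 6.76 in Tim-Fbl, against 5.34, 5.26, 5.22 and 5.89 in controls. The 18S rRNA signal was 11.47 and 11.76 in Tim-Fbl, against 12.48, 12.27, 12.66 and 11.45 in controls. The eIF-4a signal at the 3′ end minus that at the 5′ end, a measure of RNA quality, was 4.62 and 4.39 in Tim-Fbl, against 4.24, 4.30, 4.18 and 4.42 in controls. The part of these array differences in the results was not tested. Markers of head tissue were high on all arrays. Arr1 and Arr2, the photoreceptor arrestins, had 13.67 to 14.31 on all 6 arrays, and the yolk protein gene Yp1, made by female fat body, had 14.57 to 14.60. The glial marker repo lay between 9.92 and 10.30 and the neuronal marker elav between 9.73 and 10.56. The photoreceptor markers ninaE and norpA, the neuronal marker Syt1 and the glial marker Eaat1 were not matched by symbol here.

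The gene fbl was lower on both Tim-Fbl arrays, at 7.47 and 7.49, against 9.28, 9.26, 9.27 and 9.11 on the control arrays. The groups did not overlap, and the Tim-Fbl arrays differed from each other by less than the control arrays did. The level fell by 1.75 on the log2 scale, a 3.36-fold reduction (SE 0.081, adjusted p = 5.57e-05), with -1.80 at ZT3 and -1.70 at ZT15. Its probe set carries the manufacturer's suffix for shared sequence, so it can also measure other transcripts. No later enzyme gene of the coenzyme A pathway that was measured passed, with differences of -0.21 for Ppat-Dpck, 0.12 for Ppcs and 0.01 for Dpck. Ppcdc, also of this pathway, was not matched by symbol. The clock gene tim, named in the label, had 9.78 and 12.40 in Tim-Fbl, against 9.88, 9.48, 12.30 and 12.40 on the control arrays. Its levels overlapped at both times, with a difference of 0.07 that did not pass (adjusted p = 0.702).

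Of 18769 probe sets, 1650 (8.79%) passed. Higher levels in Tim-Fbl were found for 1021 probe sets (5.44%) and lower levels for 629 (3.35%). Most differences were small: 1056 of the 1650 were under 1.5-fold, 405 lay between 1.5-fold and 2-fold, and 189 were at least 2-fold, with 119 higher (0.634% of those tested) and 70 lower (0.373%). The median absolute difference of those that passed was 0.50. Subtraction of array medians moved the split to 1239 higher and 477 lower, 72.2% higher in place of 61.9%. Both Tim-Fbl arrays lay outside the range of all 4 control arrays for 1568 of the 1650, whereas 36.4% of all probe sets had this pattern (16.5% above and 19.9% below). Leaving out the Tim-Fbl array of one time is the same test as the strain difference at the other time alone, given below. It is therefore no separate check, and a call kept without either Tim-Fbl array is a call at each time alone. Of 194 genes chosen for naming that passed, 85 passed without the Tim-Fbl array at ZT15 and 89 without that at ZT3. Without 1 control they numbered 125 and 146 at ZT3 (replicates 1 and 2) and 126 and 149 at ZT15. With each of the 6 arrays left out in turn 74 passed, and these are called robust to array removal below.

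The strain difference was partly shared between the 2 times. At ZT3 alone 480 probe sets passed (2.56%), with 1.55% of all tested higher and 1.01% lower. At ZT15 alone 395 passed (2.1%), with 1.55% higher and 0.559% lower, and 236 passed at both times. The ZT3 and ZT15 differences rest on different arrays, and across all 18769 probe sets, which are not independent replicates, they correlated at r = 0.662. At least 2-fold higher levels in Tim-Fbl were seen for 134 probe sets at ZT3 (0.714% of all) and 185 at ZT15 (0.986%). Of these, 84 were shared, which is 62.7% of the ZT3 set and 45.4% of the ZT15 set. At least 2-fold lower levels were seen for 136 probe sets at ZT3 (0.725%) and 86 at ZT15 (0.458%), with 55 shared, 40.4% of the ZT3 set and 64.0% of the ZT15 set. Beyond 4-fold, 12 of 21 probe sets higher at ZT3 were also among the 37 higher at ZT15, and 14 of 24 lower at ZT3 were among the 24 lower at ZT15.

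**Figure D1:**
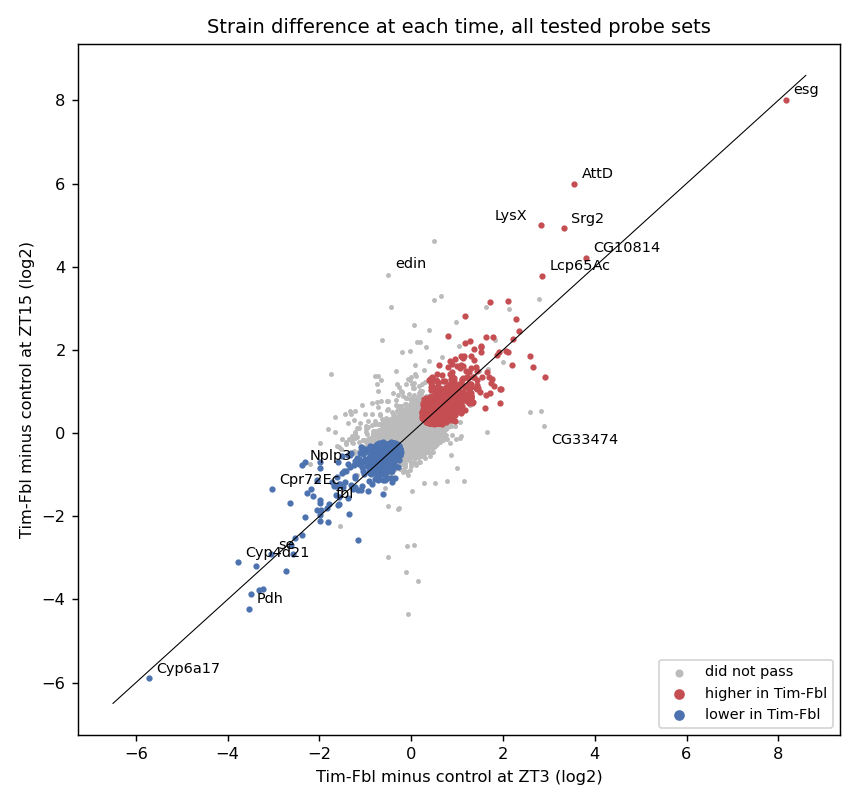
Strain difference (Tim-Fbl minus control, log2) at ZT3 on the horizontal axis and at ZT15 on the vertical axis for 18769 probe sets, with the line of equal difference. Red and blue points passed as higher or lower in Tim-Fbl, and esg and Cyp6a17 lie far out near the line, while edin and CG33474 differ at 1 of the 2 times.

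The largest rise was in esg (escargot), a zinc-finger transcription factor of the Snail family that maintains stem cells. It had 12.45 and 12.38 in Tim-Fbl, against 4.25, 4.31, 4.05 and 4.68 on the control arrays. All control arrays were near the floor, and both Tim-Fbl arrays were above 12. The rise of 8.09 (SE 0.159, adjusted p = 1.97e-06), 273-fold as a lower bound, was 8.17 at ZT3 and 8.02 at ZT15. The other Snail-family genes measured, sna and wor, stayed between 3.48 and 4.25 on all 6 arrays and did not pass. Srg2, named for regulation by the innate immune adaptor Sting, had 7.26 and 8.82 in Tim-Fbl, against 3.92, 3.96, 4.01 and 3.77 in controls, a rise of 4.13 that is also a lower bound. CG10814 had 10.93 and 10.70 in Tim-Fbl, against 7.59, 6.68, 6.78 and 6.19 in controls, with a rise of 4.01 (3.80 at ZT3 and 4.22 at ZT15). CheA87a, of a family of gustatory proteins, had 7.79 and 8.35 in Tim-Fbl and 5.49 to 5.62 in controls, a rise of 2.51 (SE 0.111, adjusted p = 4.56e-05). CG4269 rose 6.22-fold and Phk-3, an odorant-binding protein-like gene, rose 5.39-fold, and both had larger differences at ZT15 (3.17 and 3.15) than at ZT3 (2.10 and 1.71).

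Further down the ranking, 20 more genes rose 2.77-fold to 4.71-fold. CG40486 had 11.76 and 11.39 in Tim-Fbl, against 9.29, 9.06, 9.48 and 9.59 in controls, a rise of 2.22 (SE 0.160, adjusted p = 0.000563). Gagr, a gene derived from the gag region of a retroelement, had 9.34 and 9.15 in Tim-Fbl, against 7.43, 7.03, 7.33 and 7.06 in controls, and rose by 2.04. By the rule that chose these genes, their arrays did not overlap between the strains. The methuselah-like receptor gene mthl9 had 6.68 and 6.14 in Tim-Fbl, against 4.76, 4.79, 4.25 and 4.13 in controls, a rise of 1.93 (SE 0.075, adjusted p = 2.68e-05). Its relative mthl4 rose by 1.59, and for both genes the controls were near the floor. CG3604 rose 4.12-fold, CG15784 3.92-fold, CG1136 3.50-fold, CG42807 3.36-fold and CG13071 3.23-fold. CG13403, CG32694, mah, CG16965, CG10383, CG7194 and CG7408 rose 2.77-fold to 2.96-fold. Nazo, an antiviral gene induced through Sting, had 7.91 and 7.87 in Tim-Fbl, against 6.76, 4.62, 5.89 and 5.34 in controls. Its controls were widely spread, and the rise of 2.24 (adjusted p = 0.0372) did not pass without either Tim-Fbl array or without either ZT15 control. CG7194, with 1 high control array at 5.92 and the others at 4.39 to 4.52, and CG7408, with 1 low control array at 5.02, lost the call without either Tim-Fbl array, without either ZT3 control and, for CG7194, without replicate 1 of the ZT15 controls. CG42807 lost it without the Tim-Fbl array at ZT15.

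Cyp6a17, which encodes a cytochrome P450 known for an effect on temperature preference, fell most. It had 4.01 and 3.77 in Tim-Fbl, against 9.69, 9.74, 9.42 and 9.92 on the control arrays. The Tim-Fbl arrays were at the floor, so the 55.8-fold difference (-5.80, SE 0.138, adjusted p = 4.08e-06) is a lower bound. CG7365 had 4.19 and 4.61 in Tim-Fbl, against 7.42, 7.44, 8.56 and 8.19 in controls, and fell by 3.50. CG7906 had 4.64 and 4.47, against 7.31, 7.43, 7.53 and 8.06 in controls, and fell by 3.03. Both were near the floor in Tim-Fbl and well above it in every control. CG4842 had 6.88 and 6.91 in Tim-Fbl, against 10.31, 10.25, 9.98 and 10.23 in controls, and fell by 3.30 (SE 0.098, adjusted p = 1.02e-05) with -3.39 at ZT3 and -3.20 at ZT15. CG2121 had 6.88 and 7.60 in Tim-Fbl, against 9.14, 9.36, 9.94 and 10.17 in controls. It was higher at ZT15 than at ZT3 in both strains, and fell by 2.37 at ZT3 and by 2.46 at ZT15.

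Several falls of about 4-fold were nearly the same on each pair of arrays. CG17572 had 6.64 and 6.62 in Tim-Fbl, against 8.59 to 8.77 in controls, and CG8768 had 6.65 and 6.62, against 8.58 to 8.66. Their differences of -2.05 and -1.98 had SEs of 0.077 and 0.071. CG9512 fell 4.48-fold, and CtsL3, a cathepsin L-like protease gene, fell 4.51-fold. CAH2, a carbonic anhydrase gene, had 6.99 and 6.55 in Tim-Fbl, against 8.78, 8.89, 8.43 and 8.28 in controls, and fell 3.54-fold. Drip, an aquaporin gene, had 5.98 and 6.29 in Tim-Fbl, against 7.67, 7.48, 8.07 and 7.95 in controls, and fell 3.16-fold. By the rule that chose these genes, neither had an overlap between the strains. RabX5, a Rab-family GTPase gene, and CG13022 fell by 1.84 and 1.64, with Tim-Fbl near the floor.

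In some genes with large falls the control replicates stood apart from each other at both times, as seen after their values were known. Cyp4d21 (sxe1) and sxe2, both named as sex-specific enzymes, had 4.35 and 6.09, and 7.71 and 7.76, in Tim-Fbl. In controls, Cyp4d21 had 9.24 and 7.01 at ZT3 and 10.48 and 7.91 at ZT15, and sxe2 had 10.09 and 9.25 at ZT3 and 10.20 and 9.03 at ZT15. Replicate 1 was above replicate 2 at both times for both genes. By the rule that chose them, all control arrays were above both Tim-Fbl arrays. CG9498, Cyp313a1 and the Osiris gene Osi6 had the same order of control replicates. The falls were 3.44 for Cyp4d21 (adjusted p = 0.0387), 1.91 for sxe2 (0.0175), 1.96 for CG9498 (0.021) and 3.69 for Osi6 (0.00418). Without either Tim-Fbl array Cyp4d21, sxe2 and CG9498 did not pass, and without either replicate 1 control Cyp4d21 did not pass. CG4962 and CG30083, which fell by 1.86 and 1.77, did not pass without the Tim-Fbl array at ZT3.

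**Figure D2:**
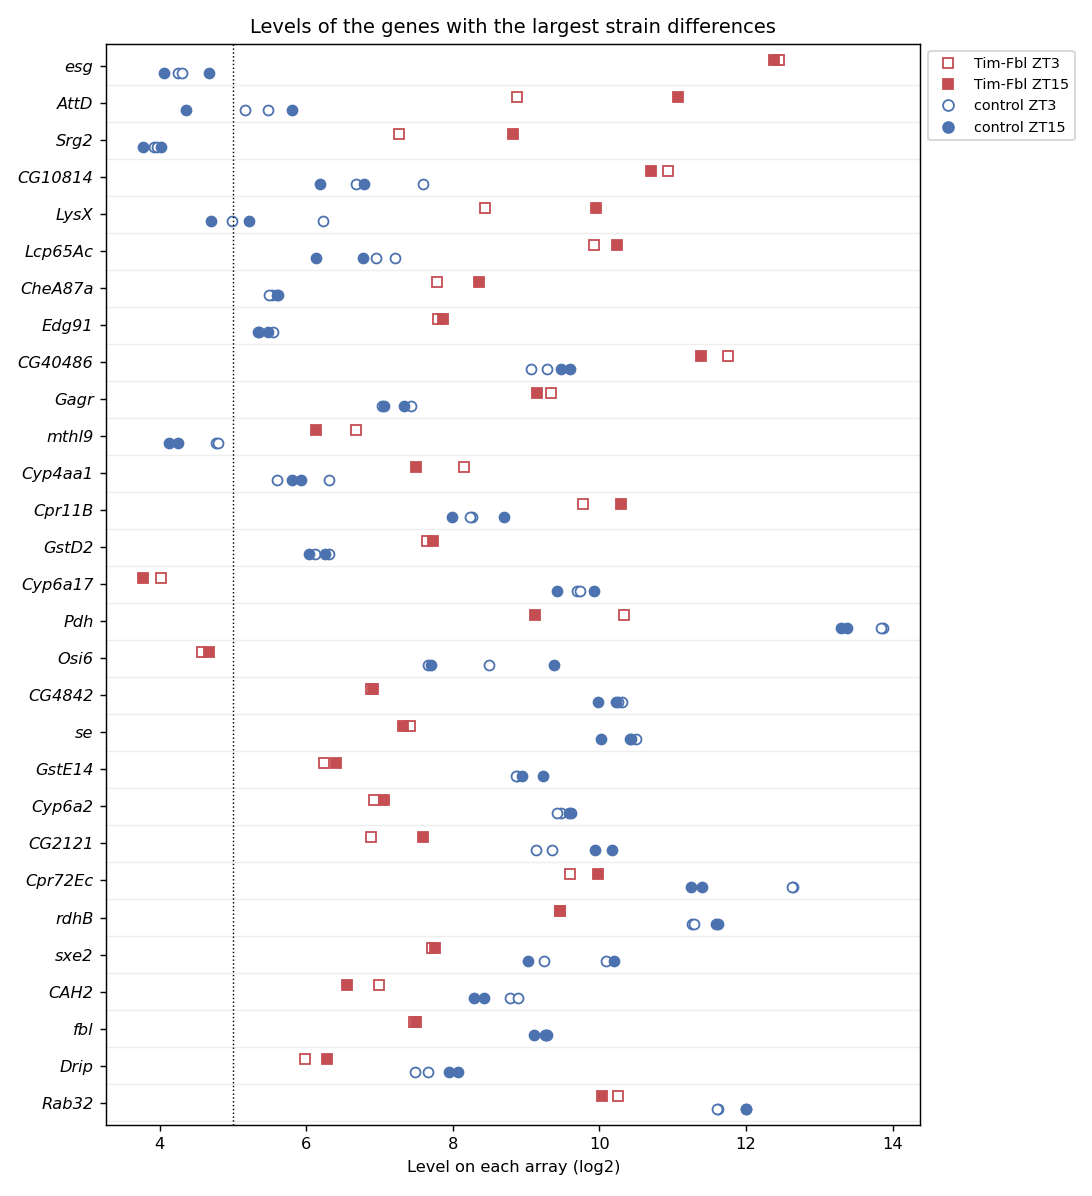
Log2 level on each array of 29 genes among those with the largest strain differences, with Tim-Fbl as red squares above control as blue circles, open at ZT3 and filled at ZT15, and a dotted line at 5, near the floor. By the rule that chose these genes, both red squares lie outside the range of the 4 blue circles, and the controls of Osi6 spread from 7.66 to 9.39.

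For gene groups, 1 probe set stood for each of 11982 genes, of which 813 (6.79%) were higher and 451 (3.76%) lower in Tim-Fbl, and 38.3% had Tim-Fbl arrays outside the control range. The median difference over these genes was 0.01, with 5825 genes below 0 and 6157 (51.4%) above. Members of the respiratory chain and ATP synthase, which make ATP in mitochondria, leaned lower. Of 68 measured members, 61 had a difference below 0, 8 fell, 0 rose, and the median was -0.20 (-0.21 at ZT3 and -0.19 at ZT15). Of the 8, 7 belong to complex I, the NADH dehydrogenase, and 1 to ATP synthase. ATPsyndelta, the delta subunit of ATP synthase, had 12.00 and 11.92 in Tim-Fbl, against 12.45, 12.51, 12.29 and 12.22 in controls, and fell 1.33-fold (adjusted p = 0.0227). ND-19 had 11.08 and 11.03 in Tim-Fbl, against 11.54, 11.54, 11.32 and 11.34 in controls, and fell 1.30-fold. For both subunits each Tim-Fbl array was below all controls. ND-ACP, ND-B18, ND-13A, ND-B14.7, ND-B17 and ND-B17.2 fell by 0.30 to 0.36. These small falls rested on all arrays together: no member passed without control replicate 1 at either time or without either Tim-Fbl array, 2 passed without replicate 2 at ZT3 and 3 without replicate 2 at ZT15. With array medians subtracted 3 members passed as lower and 1 as higher.

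Mitochondrial ribosomal protein genes leaned the same way, with 63 of 69 members below 0 and a median of -0.13. The 3 falls, 4.35% of the list and near the 3.76% of all genes, were in mRpL20 (-0.44), mRpL13 (-0.35) and mRpL42 (-0.35). After cyclic loess 18 of the 69 passed as lower, after quantile normalization 13 and after subtraction of array medians 1. Leaving out an array gave 0 to 2, with 0 without either Tim-Fbl array, 1 without replicate 1 at ZT3 or without either ZT15 control and 2 without replicate 2 at ZT3. Of 20 genes of pyruvate dehydrogenase and the citric acid cycle, 17 were below 0 and none passed by limma. The nearest were Idh (-0.28, adjusted p = 0.0713) and Scsalpha1 (-0.24, adjusted p = 0.0751). The 41 cytosolic ribosomal protein genes had a median of -0.05 and the 40 proteasome genes 0.01, and none of either list passed.

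Genes of fatty acid breakdown and lipid mobilization had a median of -0.35, with -0.50 at ZT3 and -0.17 at ZT15, and 5 of 17 fell (29.4%). AkhR, the receptor for adipokinetic hormone, which mobilizes fat, had 9.57 and 9.91 in Tim-Fbl, against 10.26, 10.17, 10.66 and 10.55 in controls. Both Tim-Fbl arrays were below all controls, and the fall of 0.67 (SE 0.077, adjusted p = 0.00389) was robust to array removal. The carnitine palmitoyltransferases, which carry fatty acids into mitochondria, are encoded by whd and CPT2. They fell by 0.44 and 0.49, and CPT2 had 9.28 and 9.15 in Tim-Fbl, against 9.82, 9.81, 9.60 and 9.61 in controls. Mtpbeta, a subunit of the trifunctional protein of beta-oxidation, fell by 0.46 and Arc42, an acyl-CoA dehydrogenase gene, by 0.39. Without an array the number of falls was 3 or 4 with a control removed, 1 without Tim-Fbl at ZT3 and 2 without Tim-Fbl at ZT15.

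In lipid synthesis 3 of 17 genes rose and 0 fell, with a median of -0.04. FASN2, a fatty acid synthase gene, had 5.91 and 5.75 in Tim-Fbl and 5.04 to 5.36 in controls, and rose by 0.62. Agpat2, an acyltransferase gene of triglyceride synthesis, rose by 0.63, and Lpin, the lipin phosphatidate phosphatase gene, rose by 0.51. SREBP, a lipogenic transcription factor gene, had 10.98 and 10.83 in Tim-Fbl, against 10.47, 10.35, 10.70 and 10.52 in controls, and missed the threshold (adjusted p = 0.0599). The 3 rises fell to 1 without either ZT3 control or without Tim-Fbl at ZT15, to 2 without either ZT15 control and to 0 without Tim-Fbl at ZT3, and after quantile normalization 1 passed. Gluconeogenesis, glycogen and trehalose genes had a median of -0.36, with -0.49 at ZT3 and -0.14 at ZT15. Of these 13 genes only PCB, pyruvate carboxylase, passed, with a fall of 0.39. Pgm1, phosphoglucomutase, had 11.32 and 11.44 in Tim-Fbl, against 11.93, 12.29, 11.76 and 11.76 in controls, and just missed the threshold (adjusted p = 0.0501). Among 10 glycolytic genes the hexokinase genes differed in direction: Hex-A rose by 0.58 and Hex-C fell by 0.44. Neither passed without either Tim-Fbl array or without replicate 2 at ZT3, Hex-A also failed without replicate 1 at ZT15 and after quantile normalization, and Hex-C without replicate 1 at ZT3 or replicate 2 at ZT15. PCB failed without replicate 1 at either time or either Tim-Fbl array, and after quantile normalization.

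Of 15 genes of insulin signalling and the starvation response, 5 rose, 33.3% of the list, and 1 fell. InR, the insulin receptor gene, had 9.62 and 9.43 in Tim-Fbl, against 8.65, 8.54, 8.81 and 8.93 in controls, and rose by 0.79 (SE 0.115, adjusted p = 0.00938). The ligand genes Ilp2 and Ilp5, expressed in the insulin-producing neurons of the brain, rose by 0.46 and 0.42. Ilp2 had 11.37 and 11.20 in Tim-Fbl and 10.70 to 10.89 in controls. The receptor substrate gene chico and the transcription factor gene foxo each rose by 0.37, and foxo had 8.88 on its lower Tim-Fbl array and 8.89 on its highest control. The activin-like ligand gene daw fell by 0.80, with -0.42 at ZT3 and -1.17 at ZT15. The count of rises was 1 without control replicate 1 at ZT3 or either Tim-Fbl array, 2 without replicate 1 at ZT15, and 3 without replicate 2 at either time. With quantile normalization the count was 3 and with cyclic loess it was 2. The fall of daw did not pass without replicate 2 at ZT3, either ZT15 control or Tim-Fbl at ZT15.

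**Figure D3:**
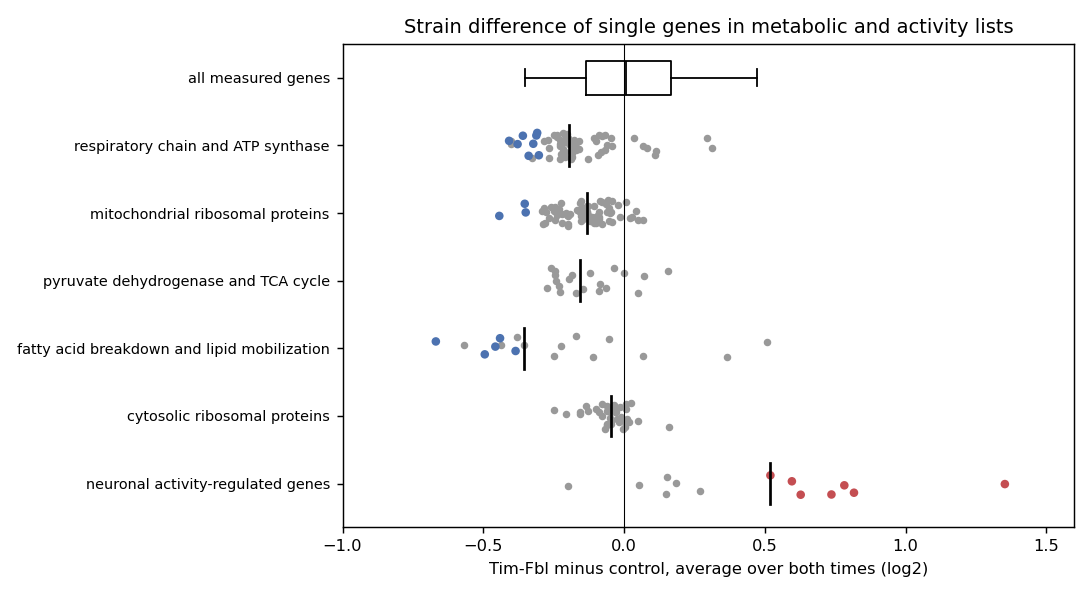
Strain difference averaged over both times (log2) for single genes of 6 lists, with points in red or blue where the gene passed as higher or lower in Tim-Fbl, grey where it did not, and a black bar at the list's median. The box gives all 11982 genes, with quartiles and whiskers at the 5th and 95th percentiles; most respiratory chain points lie left of 0, and 7 activity-regulated genes lie right of the box.

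Among detoxification genes both directions occurred. Of 83 cytochrome P450 genes 8 rose and 12 fell (14.5%). Beside Cyp6a17, Cyp6a2, an insecticide-metabolizing P450 gene, had 6.92 and 7.06 in Tim-Fbl, against 9.47, 9.42, 9.59 and 9.61 in controls, and fell 5.77-fold, with -2.53 at both times. Cyp313a1 had 8.58 and 8.64, against 11.45, 10.85, 11.81 and 11.28 in controls, and fell 6.67-fold. By the rule that chose the largest falls, neither gene overlapped between strains. Cyp4p2 fell 3.01-fold, Cyp6d2 2.96-fold and Cyp4d20 1.88-fold, and Cyp6t1, Cyp18a1, Cyp6a8, Cyp6g2 and Cyp12c1 fell 1.49-fold to 1.65-fold. Cyp4aa1 rose most, with 8.15 and 7.50 in Tim-Fbl, against 6.32, 5.60, 5.92 and 5.80 in controls, a 3.77-fold rise. Cyp28d2 rose 1.68-fold, and Cyp4p1, Cyp6a9, Cyp9h1, Cyp6a23, Cyp9b1 and Cyp4ac3 rose 1.35-fold to 1.58-fold. Removal of either Tim-Fbl array left 2 rises and, without ZT3 or ZT15, 7 or 8 falls, and removal of control replicate 1 at ZT3 left 5 rises. The rises were 4 after quantile normalization and 5 after cyclic loess.

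Of 34 glutathione S-transferase genes, 3 rose, all of the D class, and 3 fell. GstD2 had 7.64 and 7.73 in Tim-Fbl, against 6.31, 6.12, 6.25 and 6.04 in controls, and rose 2.84-fold (adjusted p = 0.000386). GstD9 rose 1.63-fold and GstD10 1.67-fold. GstE14, needed for ecdysone synthesis, had 6.25 and 6.40 in Tim-Fbl, against 8.87, 8.86, 9.24 and 8.94 in controls, and fell 6.29-fold, with -2.62 at ZT3 and -2.69 at ZT15. GstE5 fell 2.08-fold and GstO3 1.28-fold. The call of GstO3 was lost without either ZT3 control, without control replicate 1 at ZT15 and without either Tim-Fbl array. GstD9 and GstD10 did not pass without Tim-Fbl at ZT15. Of 35 UDP-glycosyltransferase genes 2 rose, with Ugt36E1 1.80-fold higher, and 2 fell, with Ugt49B1 1.73-fold lower. Among 14 antioxidant genes, Gclc, which makes glutathione, rose by 0.47, and Sod3, an extracellular superoxide dismutase gene, fell by 0.46. Cat (-0.27) and Sod2 (-0.24) did not pass. None of these 4 UDP-glycosyltransferase and 2 antioxidant calls was robust to array removal.

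Cuticle protein genes had 6 rises and 7 falls among 105, of which 51 had a mean under 5. These are 5.71% and 6.67% of the list. Lcp65Ac had 9.93 and 10.23 in Tim-Fbl, against 6.95, 7.20, 6.78 and 6.13 in controls, a 9.95-fold rise (3.32, SE 0.242). Edg91 had 7.79 and 7.86, against 5.35, 5.55, 5.47 and 5.34 in controls, a 5.28-fold rise. Cpr11B rose 3.33-fold, TwdlT 2.12-fold and Cpr47Ef 1.93-fold, and Cpr11A rose by 0.90 with all arrays under 5. Cpr72Ec had 9.60 and 9.98 in Tim-Fbl, against 12.64 and 12.63 at ZT3 and 11.25 and 11.40 at ZT15 in controls. The controls differed more between times than the Tim-Fbl arrays did, and the fall was 3.04 at ZT3 and 1.34 at ZT15. Cpr49Ae fell 3.55-fold and Cpr49Ag 2.24-fold. The 7 falls became 4 without replicate 1 at either time, 3 without Tim-Fbl at ZT3 and 2 without Tim-Fbl at ZT15. Osi6, Osi2 and Osi3 were the 3 of 24 Osiris genes that fell, and 18 of the 24 had a mean under 5. Without Tim-Fbl at ZT15 1 of the 3 passed.

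Odorant-binding protein genes, whose products carry odorants in the fluid of sensory hairs, had 6 falls among 47 and 0 rises. Obp56h had 7.69 and 7.86 in Tim-Fbl, against 9.56, 9.25, 9.14 and 8.95 in controls, and fell 2.73-fold. Obp56d had 12.92 and 13.03, against 13.72, 13.64, 13.76 and 13.63 in controls, and fell 1.64-fold. Obp56e fell 1.68-fold and Obp56f 2.49-fold, with the lowest control at 4.82 and the higher Tim-Fbl array at 4.95. These 4 genes of the Obp56 cluster did not lose their call with any 1 array left out. Obp49a and Obp73a fell by 0.35 and 0.48 and lost the call without replicate 1 at ZT15 and without either Tim-Fbl array, and Obp49a also without either ZT3 control. Obp99b had 11.97 and 13.14 in Tim-Fbl, against 10.84, 7.51, 10.89 and 8.95 in controls, a difference of 3.00 that did not pass (adjusted p = 0.0756) and was singled out after its values were seen. Its control replicates differed at both times. Of 166 chemoreceptor genes 155 had a mean under 5, and 3 rose and 3 fell. Each count is 1.81% of the list, against 6.79% higher and 3.76% lower of all genes. Among these calls Or1a had the largest difference, 0.63, and none of them was robust to array removal.

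The 14 antimicrobial peptide genes had a median difference of 0.77, which was -0.06 at ZT3 and 1.36 at ZT15, and only 2 passed, AttD and Drsl5. AttD, an attacin, had 8.87 and 11.07 in Tim-Fbl, against 5.47, 5.17, 5.80 and 4.36 in controls. By the rule that chose the largest rises, every Tim-Fbl array was above every control. The rise of 4.77 (SE 0.562, adjusted p = 0.00418) was 3.55 at ZT3 and 5.99 at ZT15. Drsl5, a drosomycin-like peptide, had 12.26 and 12.59 in Tim-Fbl, against 11.87, 11.84, 11.47 and 11.10 in controls, and rose by 0.86. Def, which encodes defensin, had 10.81 and 11.32 in Tim-Fbl, against 10.74, 10.50, 9.88 and 8.38 in controls, and did not pass (adjusted p = 0.171). The lowest value of Def, Drsl4 and AttD was on replicate 2 of the ZT15 controls. Without 1 array 1 of the 2 passed, except that 4 genes passed without Tim-Fbl at ZT3 and 2 without replicate 2 at ZT15. After quantile normalization or cyclic loess 1 passed. The median level over the list was 9.84 and 11.20 in Tim-Fbl, against 8.69, 9.83, 8.61 and 7.26 in controls. LysX, a lysozyme gene, had 8.44 and 9.96 in Tim-Fbl, against 6.22, 4.99, 5.21 and 4.70 in controls, and rose 15.1-fold. Another lysozyme gene, LysP, had 9.46 on replicate 1 of the ZT15 controls and 2.82 to 3.30 on the other 5 arrays.

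Of 23 genes of the Imd and Toll pathways, which switch on antimicrobial peptides, 5 rose and 1 fell. Rel, the NF-kappaB factor of the Imd pathway, had 10.79 and 10.82 in Tim-Fbl, against 9.97, 9.92, 10 and 9.71 in controls. It rose 1.87-fold (adjusted p = 0.00316), by 0.84 at ZT3 and 0.96 at ZT15. The Imd inhibitor genes pirk and PGRP-LF rose 1.83-fold and 1.77-fold, and key, an IKK complex subunit gene, rose 1.42-fold. The Toll pathway factor gene dl rose 1.26-fold, and GNBP3, which recognizes fungal glucan, fell 1.35-fold. For Rel and pirk the call was robust to array removal, and the number of rises was 2 without either Tim-Fbl array or without replicate 2 at ZT15, and 3 without replicate 1 at either time. After quantile normalization or cyclic loess the count of rises was 3. Of 13 hemocyte markers Hml (0.71), eater (0.65) and vkg (0.35) rose, PPO2 (-0.47) fell and 9 did not pass. Their median level was 10.57 and 10.28 in Tim-Fbl, against 9.79, 10.02, 9.76 and 10.11 in controls. Without either Tim-Fbl array none of the 3 rises passed, without replicate 1 at either time 1 did, and without replicate 2 at ZT3 2 did, while the fall of PPO2 was lost without any 1 array. After quantile normalization or cyclic loess 1 hemocyte marker rose and 0 fell. The part of hemocyte number in the immune differences was not tested, and more cells of a type and more RNA per cell cannot be told apart in whole heads.

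**Figure D4:**
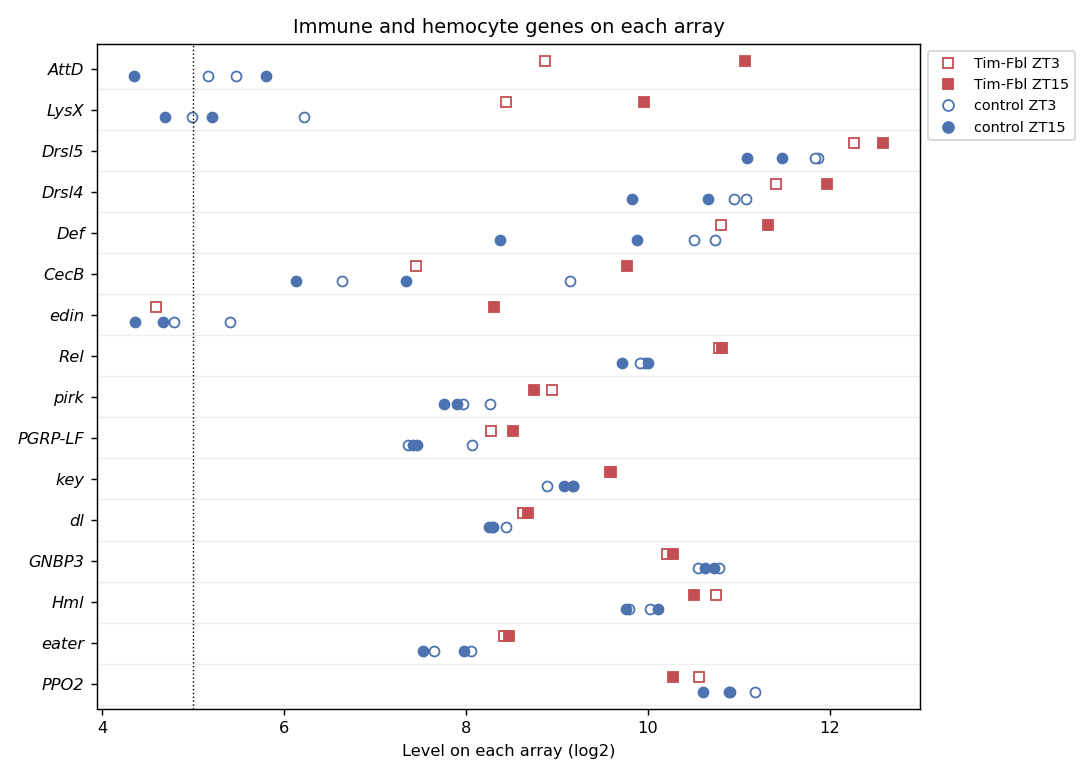
Log2 level on each array of 16 immune and hemocyte genes, with Tim-Fbl as red squares above control as blue circles, open at ZT3 and filled at ZT15, and a dotted line at 5, near the floor. Rel, pirk and Hml are higher on both Tim-Fbl arrays than on any control, while edin is high only on the Tim-Fbl array at ZT15, at 8.31.

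In the eye, genes of visual chromophore metabolism had 3 falls among 7. Pdh, a retinol dehydrogenase of pigment cells, had 10.33 and 9.12 in Tim-Fbl, against 13.88, 13.84, 13.38 and 13.29 in controls. It fell 14.6-fold (-3.87, SE 0.147, adjusted p = 2.45e-05), by 3.53 at ZT3 and 4.22 at ZT15. The retinol dehydrogenase gene rdhB had 9.46 in both Tim-Fbl arrays, against 11.27, 11.29, 11.59 and 11.62 on the control arrays, and fell 3.94-fold. ninaB, which encodes the enzyme that cleaves carotenoids to retinal, fell 1.77-fold, by 1.02 at ZT3 and 0.63 at ZT15. All 3 calls were robust to array removal. The scavenger receptor gene ninaD, for carotenoid uptake, had a difference of 0.40 that did not pass. Of 27 phototransduction genes 17 were matched by symbol, and those not matched included the rhodopsin genes ninaE and Rh2 to Rh6, norpA, ninaC and ninaA. Among the 17 only laza, a lipid phosphatase gene, passed, 5.88% of the list against 6.79% of all genes higher. It rose by 0.45, and its call was not robust to array removal. The channel gene trp (-0.12) and the arrestin genes Arr1 (-0.03) and Arr2 (0.02) did not pass.

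Eye pigment genes had 3 rises and 4 falls among 19. The 4 that fell, se, bw, ry and pr, act in the pteridine branch, which makes red pigments. The sepia gene se had 7.41 and 7.32 in Tim-Fbl, against 10.49, 10.42, 10.43 and 10.03 in controls, and fell 7.89-fold (-2.98, SE 0.119). The transporter gene bw fell 1.59-fold, ry (xanthine dehydrogenase) 1.58-fold and pr (pyruvoyl tetrahydropterin synthase) 1.49-fold. Of those that rose, st, a transporter gene for the brown ommochromes, had 8.63 and 8.97 in Tim-Fbl, against 7.43, 7.25, 8.03 and 8.27 in controls, and rose 2.08-fold. The ommochrome gene kar rose 1.35-fold, and Pu, the GTP cyclohydrolase gene at the start of the pteridine pathway, rose 1.30-fold. Rab32, known in flies as lightoid for its eye colour mutants, had 10.26 and 10.04 in Tim-Fbl, against 11.62, 11.60, 12.00 and 11.99 in controls, and fell 3.15-fold. Its probe set carries the suffix for shared sequence. The calls of se, st and Rab32 were robust to array removal. Among the others, pr lost it without Tim-Fbl at ZT3, bw and ry without either Tim-Fbl array (bw also without replicate 1 at ZT3), and kar and Pu without replicate 1 at either time or without either Tim-Fbl array.

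Genes switched on by neuronal activity had the highest share of rises of any list with at least 10 members, 7 of 13 (53.8%), with a median of 0.52 (0.52 at ZT3 and 0.46 at ZT15). Arc1, a capsid-forming synaptic gene, had 12.96 and 13.01 in Tim-Fbl, against 12.17, 11.05, 11.86 and 11.44 in controls, and rose 2.55-fold (adjusted p = 0.0297). Both Tim-Fbl arrays were above all controls, and the controls were spread over more than 1 unit. Atf3, a stress-responsive transcription factor gene, had 10.22 and 10.15 in Tim-Fbl and 9.34 to 9.55 in controls, and rose 1.67-fold (adjusted p = 0.00405). Of the 7 rises, only that of Atf3 was robust to array removal. The AP-1 subunit genes kay (Fos) and Jra (Jun) rose 1.43-fold and 1.51-fold, puc, a phosphatase gene induced by JNK signalling, rose 1.72-fold, and Arc2 rose 1.76-fold. The nuclear receptor gene Hr38 had 7.45 and 6.15 in Tim-Fbl, against 6.98 and 6.88 at ZT3 and 5.45 and 5.38 at ZT15 in controls. It was higher in Tim-Fbl at both times but overlapped across times, and rose 1.54-fold. Without Tim-Fbl at ZT15 2 of the list rose, without Tim-Fbl at ZT3 3 did, and without any 1 control 6 or 7 did.

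Glial markers had 4 rises among 16. drpr, the engulfment receptor gene draper, had 11.14 and 11.19 in Tim-Fbl, against 10.48, 10.36, 10.49 and 10.69 in controls, and rose 1.58-fold. Gat, the GABA transporter gene, rose 1.45-fold, loco 1.31-fold and alrm, an astrocyte marker, 1.27-fold. Over all 16 the median level was 10.50 and 10.56 in Tim-Fbl, against 10.23, 10.15, 10.18 and 10.26 in controls. Without an array the count was 0 (Tim-Fbl at ZT3), 1 (Tim-Fbl at ZT15), 2 (replicate 1 at ZT15) or 3. None of the 20 neuronal and synaptic markers passed, with a median of 0.12. Nearest to passing was elav (0.35, adjusted p = 0.0524). Of 30 neuropeptide genes Nplp4 (2.02-fold) and Dh44 (1.38-fold) rose, and Nplp3 and Burs fell. Nplp3 had 10.98 and 11.89 in Tim-Fbl, against 13.16, 13.55, 12.73 and 12.61 in controls, and fell by 2.38 at ZT3 and by 0.77 at ZT15. Of 22 channel genes Irk3 rose 1.70-fold, and Irk2 and Ih fell 1.51-fold and 1.29-fold. In amine transmission, Vmat, the vesicular monoamine transporter gene, and DAT, the dopamine transporter gene, rose 1.52-fold and 1.40-fold, and speck, which acetylates amines, fell 1.55-fold. Neither Vmat nor DAT passed without either Tim-Fbl array. DAT also failed without either ZT3 control, without replicate 1 at ZT15 and after quantile normalization or cyclic loess. The fall of speck failed without either Tim-Fbl array, without replicate 1 at either time and with array medians subtracted. Nplp4 and Irk3 were robust to array removal, and Dh44, Nplp3, Burs, Irk2 and Ih were not.

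Muscle markers had 5 rises among 20. Act88F, the flight muscle actin gene, had 7.70 and 8.29 in Tim-Fbl, against 6.72, 6.54, 6.86 and 6.61 in controls, and rose 2.48-fold. sls, TpnC73F, Mlp84B and Act87E rose 1.28-fold to 1.53-fold. Of these, only Act88F was robust to array removal, and the count was 1 without either Tim-Fbl array, 2 without replicate 1 at either time, 3 without replicate 2 at ZT3 and 4 without replicate 2 at ZT15. After quantile normalization 2 rose and after cyclic loess 3. The median level over all 20 was 10.37 and 10.49 in Tim-Fbl, against 10.21, 10.75, 10.07 and 10.27 in controls, and overlapped between strains. In other tissues, none of 12 fat body and yolk genes passed and 2 of 18 gut markers fell. Of 16 ovary markers 1 rose (grk) and 2 fell, and 1 of 16 testis and accessory gland markers rose (bol). The gut and ovary falls were 11.1% and 12.5% of their lists, against 3.76% of all genes. The rises of grk and bol, each 6.25% of its list against 6.79% of all genes, were not robust to array removal, and bol did not pass after cyclic loess. With 1 array left out 0 or 1 of the gut falls and none of the ovary falls passed. Most gut markers (12 of 18), ovary markers (12 of 16) and testis markers (13 of 16) had a mean under 5. In the piRNA pathway, spn-E, a helicase gene, had 6.23 and 6.46 in Tim-Fbl, against 5.05, 4.83, 4.89 and 4.89 in controls, and rose 2.70-fold, with controls near the floor, alone among 14 small RNA genes.

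The remaining lists had few members that passed. In iron handling, Zip99C (robust to array removal), an iron transporter gene, had 9.99 and 10.39 in Tim-Fbl, against 9.27, 8.94, 9.33 and 9.36 in controls, and rose 1.95-fold, while the ferritin gene Fer1HCH (0.21) and Mvl (0.35) did not pass. Among 16 chaperone genes Hsp27 rose 1.49-fold. Of 20 autophagy genes Atg18b rose 1.40-fold, and 16 of the 20 (80%) were above 0, against 51.4% of all genes. Only 1 of the 20 had a mean under 5, against 31.0% of all genes. Probe sets with a mean of 7 to 9 had a median difference of 0.12, and those under 5 had -0.08. The autophagy median of 0.17 became 0.06 after quantile normalization. None of 9 unfolded protein response genes and none of 10 core clock genes passed. Of these lists the clock had a median of 0.12, with 0.25 at ZT3 and 0.02 at ZT15. In hormone signalling the nuclear receptor genes ftz-f1 and usp rose 1.42-fold and 1.26-fold. The calls of Hsp27, Atg18b, ftz-f1 and usp were not robust to array removal, and that of usp was lost without any 1 array. After quantile normalization or cyclic loess usp did not pass, and after cyclic loess Atg18b did not. Of 15 replication and cell cycle genes CycB rose by 0.44 with all arrays under 5, and its call was not robust to array removal. Of 5 Turandot genes TotB fell by 0.43, also with all arrays under 5 and lost without any 1 array and under each scaling, and none of 3 thioester protein genes passed.

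**Figure D5:**
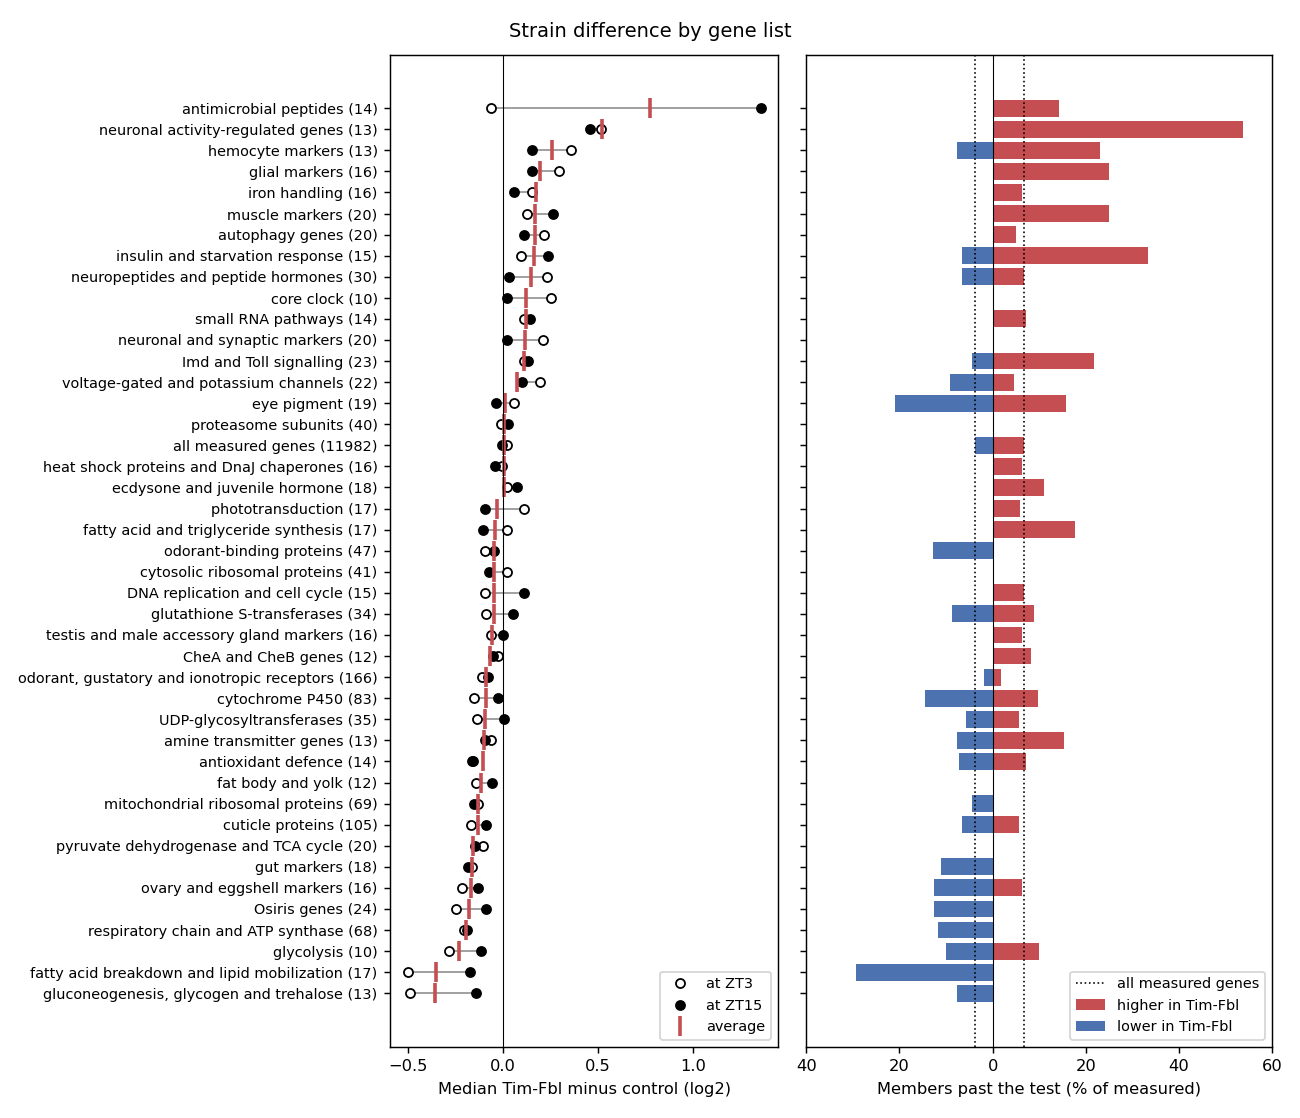
Gene lists with at least 10 measured members (number in brackets), ordered by median difference. The left panel gives the median Tim-Fbl minus control difference (log2) at ZT3, at ZT15 and on average, and the right panel gives the percent of members past the test as higher (red) or lower (blue), with dotted lines at the 6.79% and 3.76% of all measured genes; activity-regulated genes reach 53.8% higher and fatty acid breakdown 29.4% lower.

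Where the strain difference depended on time was asked by the interaction, the difference at ZT15 minus that at ZT3. It passed for 7 of 18769 probe sets (0.0373%), with 6 more positive at ZT15 (0.032%) and 1 the other way (0.00533%). An unadjusted limma p under 0.05 was found for 1014 of the 18769, near the share of 0.05 that would be reached with no interaction. edin, an immune-induced peptide gene, had 4.59 and 8.31 in Tim-Fbl, against 4.79, 5.41, 4.68 and 4.36 in controls. The Tim-Fbl array at ZT15 was far above the other 5, of which the highest was replicate 2 of the ZT3 controls, and the differences were -0.51 at ZT3 and 3.79 at ZT15 (interaction 4.30). CG11353 had 5.10 and 7.61 in Tim-Fbl, against 4.63, 4.58, 4.58 and 4.23 in controls (interaction 2.71). The cuticle genes Cpr100A and Cpr62Bc were 1.94 and 2.18 higher in Tim-Fbl at ZT15, with differences of -0.21 and 0.13 at ZT3. Cpr100A had 8.34 and 9.18 in Tim-Fbl, against 8.48, 8.62, 7.32 and 7.15 in controls, so that its controls were lower at ZT15 and its Tim-Fbl array was not. CG13043 had an interaction of 2.14. CG33474 went the other way, with 7.19 and 4.32 in Tim-Fbl, against 4.24, 4.35, 3.99 and 4.32 in controls (interaction -2.73). CecB, a cecropin gene, had 7.46 and 9.78 in Tim-Fbl, against 6.64, 9.15, 7.34 and 6.13 in controls, and with its spread among controls did not pass. Each of these interactions rests on 1 Tim-Fbl array per time. The count was 0 without replicate 2 at ZT3, 2 without replicate 1 at ZT3, 57 without replicate 1 at ZT15 and 31 without replicate 2 at ZT15.

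Calls lay on all the large chromosome arms and were rarer at low levels. By chromosome arm, 6.25% to 7.66% of genes were higher and 3.15% to 5.07% lower on 2L, 2R, 3L, 3R and X, with both highest on 2R, and 1.61% of 2R genes passed with at least 2-fold differences against 0.908% on X. Of 8290 probe sets with a mean under 5, 0.929% were higher and 1.44% lower, and of 3767 with a mean of 7 to 9, 10.3% were higher and 3.48% lower. The direction differed at the highest levels: of 925 with a mean of 11 or more, 4.43% were higher and 7.46% lower. Among 10354 pairs of measured genes that are directly adjacent among protein-coding genes, 152 had both members past the test, 101 of them in the same direction. Of all genes 10.5% passed, 6.79% as higher and 3.76% as lower. With up to 1 other coding gene between members, 11 runs of 3 genes moved the same way. The numbers of such pairs and runs for genes in random order were not tested, and the runs below were singled out after their values were seen. Obp56d, Obp56e and Obp56f on 2R fell together. On 3R, CG10553, CG10560 and CG10562 fell by 1.80, 1.56 and 0.56, and CG10514, CG11892 and CG31300 by 0.77, 1.17 and 0.92. CG10560 had 9.08 and 9.13 in Tim-Fbl, against 10.74, 10.69, 10.61 and 10.65 in controls. kmr, CG9312 and the chitinase gene Cht5 on 3R rose by 0.55, 0.71 and 1.23, and CG33469, CG33468 and Su(var)2-HP2 on 2R by 1.38, 0.88 and 0.40. Of 223 genes with at least 2 probe sets and 1 call, 55 had 2 or more probe sets that passed, and these disagreed in direction for 1 gene, ham (0.35 and -0.32).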

How the data were processed

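Deposited values of 6 arrays were used as they stood. They are on a log2 scale, taken from their range, and RMA is named per the submitters' processing notes, with its version not given in the sources used here. RMA as usually run equalizes arrays before probes are summarized, which can remove a shift shared by all transcripts, and the deposited arrays still differed slightly in distribution. Of 18952 probe sets, 183 manufacturer's controls were left out. The platform annotation gave 1 symbol to 13647 of the 18769 tested, several to 402 and none to 4720, for 11982 genes, and 89 of their identifiers were not matched in a RefSeq gene table (assembly Release 6 plus ISO1 MT), which served for names and neighbours. No column of values was left unused.

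limma 3.58.1 in R 4.3.3 fitted strain and time (3 residual degrees of freedom), and 4 group means (2 residual degrees of freedom) for each time and the interaction, p-values being adjusted by Benjamini-Hochberg for all 18769 probe sets (threshold 0.05). The functions were tested on simulated arrays. Members, gene lists and tests were chosen with earlier results of these data known, and some lists were corrected after wrong symbol matches were seen. Lists are described by 1 probe set per gene, that with the highest mean. Named genes were fbl, tim, the 30 largest rises and 30 largest falls that passed (1 symbol, mean of 5 or more in the higher strain, arrays not overlapping), list members that passed (up to 4 by the moderated statistic where fewer did), the interaction's calls (up to 10 by size) and head markers; neighbour runs, ham, LysP and Obp99b were added after their values were seen. Alternatives were filters at 5 and 7, 3 scalings, 2 variance models, other models, a replicate block and each array left out. Figures were drawn with matplotlib 3.10.9. Precision is limited by the number of arrays.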

Additional observations from a re-analysis of the deposited data

Results flagged for a closer look

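The strain difference changed with time, by the interaction test, for 7 probe sets: edin (4.30), CG11353 (2.71), Cpr100A (2.15), CG13043 (2.14), Cpr62Bc (2.06), a probe set with several symbols (1.92) and CG33474 (-2.73). Each value is the ZT15 difference minus the ZT3 difference and rests on 1 Tim-Fbl array per time. The manufacturer's control probe sets, outside the main measurement, also differed. Of 183, 1 was at least 2-fold higher in Tim-Fbl, with 5.93 and 7.71 in Tim-Fbl, against 4.87, 4.62, 5.65 and 5.65 in controls. Its difference was 1.62 on average, 1.18 at ZT3 and 2.06 at ZT15, and its identifier carries a sequence accession that no table used here pairs with a name. The median poly-A spike-in signal was 6.76 on the Tim-Fbl array at ZT15, against 5.22 and 5.89 on the controls of that time. These spike-ins are added in the laboratory, and their part in the ZT15 differences was not tested.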

How the results depend on the processing

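No named gene changed direction under a setting where it passed in the main fit or under that setting. Changes of sign in genes that passed in neither were not counted, and genes named only for the interaction were followed by the interaction. Of the 60 largest rises and falls, 47 passed under every setting that tested them. With robust variances AttD, LysX, Nazo, CG7194, CG7408, Osi6, Cyp4d21, Cpr72Ec, CG9498 and sxe2 did not pass, and with quantile normalization or cyclic loess Nazo, CG7194 and CG7408 did not. Higher and lower calls, 1021 and 629, were 689 and 593 with quantile-normalized arrays, 770 and 581 with cyclic loess, 1239 and 477 after subtraction of array medians, 403 and 191 with a 1.5-fold minimum, and 487 and 230 without time as a covariate. With probe sets under a mean of 7 left out, lower calls were 395, ZT15 calls 225 and the shared 2-fold differences 89 in place of 139. These shared differences numbered 449 at 1.5-fold and 26 at 4-fold. Calls at ZT3 were 737 with robust variances. The interaction gave 0 calls with either filter, after quantile normalization and after cyclic loess. Leaving out 1 array at a time gave 290 to 831 higher, 105 to 424 lower, 200 to 828 at ZT3, 354 to 457 at ZT15 and 0 to 57 interaction calls. The cause of these changes was not tested. Removing a Tim-Fbl array leaves the strain effect on 1 array, and the interaction then has no value.

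The labels do not say that control replicate numbers pair the arrays, and replicate differences at ZT3 and ZT15 correlated at 0.0381 across probe sets, so the numbers were not taken to pair them. A batch acting on some genes was not tested. With a replicate block, in which the number enters as a covariate of the control arrays, calls were 802 higher and 410 lower, 985 at ZT3, 673 at ZT15 and 23 for the interaction. Genes that then did not pass included ND-13A, ND-B14.7, ND-B17, ND-B17.2, ND-B18, Hex-A, Arc42, Lpin, foxo, daw, Sod3, Drsl5, dl and alrm, but none of the 60 largest rises and falls.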
